A study of Mus musculus with 6 samples.

Results

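The genes described here are 10 transcripts through which the MAPK pathway is commonly read, namely Dusp4, Dusp6, Spry2, Spry4, Etv4, Etv5, Egr1, Fos, Fosl1 and Myc. They were chosen by name, and each was found once among the 55487 genes of the count table. They were measured in B16F10, a mouse melanoma cell line, after lentiviral infection with a scramble shRNA (shCtr, n = 3) or with shRNA number 2 against Osgep (shOSGEP, n = 3), with puromycin selection of all cells. Osgep encodes the enzyme of KEOPS, a complex that writes t6A on tRNAs reading codons that begin with A. One cell line and one hairpin were used, and the labels give wild-type genotype for shCtr and knockdown for shOSGEP. The replicates are separate infections, and the interval between infection and harvest was not given in the sources used here.

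In the ERK branch of the MAPK pathway, receptor tyrosine kinases load RAS with GTP, and RAF, MEK and ERK then phosphorylate one another in turn. ERK activity is followed by transcription of early factors such as Fos and Egr1 and of ETS factors such as Etv4 and Etv5, and also of brakes on the same cascade, the DUSP phosphatases and the Sprouty proteins. In melanoma the cascade is a main driver of growth, and the levels of these output and feedback transcripts are widely used as a readout of ERK activity. ERK phosphorylation itself was not measured in these libraries.

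The regulatory sequence of 3 members is shown first. Dusp6, Spry2 and Fos were each lowest in one control library (shCtr replicate 2), as were Spry4 and Egr1. That library stood apart from the other shCtr libraries over all genes, as given below. The share of all tested genes lowest in it was not counted. Each window is the 250 bases before the start site (RefSeq, GRCm38.p6), written 5′ to 3′ on the gene's strand. Capitals mark the matches found on either strand to the motifs named after the sequences.
Dusp6, chr10:99262981-99263230, plus strand: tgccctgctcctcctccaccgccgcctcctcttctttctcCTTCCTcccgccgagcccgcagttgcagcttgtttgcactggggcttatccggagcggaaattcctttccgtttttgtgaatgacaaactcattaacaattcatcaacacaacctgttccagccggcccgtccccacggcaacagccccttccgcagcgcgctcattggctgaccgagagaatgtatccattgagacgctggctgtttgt
Fos, chr12:85473640-85473889, plus strand: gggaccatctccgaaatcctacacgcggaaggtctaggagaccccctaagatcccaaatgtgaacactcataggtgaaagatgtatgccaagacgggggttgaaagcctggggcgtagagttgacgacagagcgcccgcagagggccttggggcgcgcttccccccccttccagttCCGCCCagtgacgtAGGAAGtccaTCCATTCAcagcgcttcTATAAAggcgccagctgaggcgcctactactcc
Spry2, chr14:105896820-105897069, minus strand: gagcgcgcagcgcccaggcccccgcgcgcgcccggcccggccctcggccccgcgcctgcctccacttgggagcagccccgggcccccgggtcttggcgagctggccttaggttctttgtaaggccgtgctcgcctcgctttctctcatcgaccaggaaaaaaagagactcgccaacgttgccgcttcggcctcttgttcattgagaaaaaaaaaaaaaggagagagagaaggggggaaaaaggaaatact

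The search used 10 motifs, and no match overlapped another in these windows. The PEA3 site (AGGAAG), named for the ETS subgroup of Etv4 and Etv5, was found in the Dusp6 and Fos windows and occurs in 29.5% of all 32851 promoters of that length. The Fos window also held a GC box (GGGCGG, 32.7% of promoters), a TATA box (TATAAA, 12.4%) and a site of CIC, an ERK-controlled repressor (TGAATGGA, 1.01%). No window of these 3 genes held the other CIC site searched (TGAATGAA, 1.08%), a CRE (TGACGTCA, 1.55%), an AP-1 site (TGANTCA, 6.75%), the ETS site CCGGAAG (6.91%) or the CArG box (1.47%), nor its special form, the serum response element (0.0609%). The Spry2 window held none of the 10. For all 3 genes an absence says only that the letters searched are not in the 250 bases shown. Sites farther upstream, or with other letters, were not looked for. The window GC content was 56.4% for Dusp6, 58.4% for Fos and 62.4% for Spry2. Etv5 was the only other member with a promoter in the table used.

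The libraries held between 18915587 and 29487384 counts. The targeted gene, Osgep, was at 20.6, 58.6 and 21.8 CPM (counts relative to library size, which was scaled by the TMM method) in shCtr replicates 1, 2 and 3, and in shOSGEP at 4.28, 0.542 and 5.52 CPM. Every shOSGEP library lay below every shCtr library, with a Log2FC of -3.29 (SE 0.876). The adjusted p was 1.00 in edgeR (unadjusted p 0.00524) and 0.0386 in DESeq2, and the Log2FC was -2.11 without both libraries of replicate 2. shCtr replicate 2 stood apart: its log2 CPM correlated with the other shCtr libraries at 0.776 and 0.857, against 0.966 between those libraries. Transcripts of at most 40% GC deviated in that library by a median of -2.43 in log2 CPM from the mean of all libraries, and those over 60% GC by 1.15. For shOSGEP replicate 2 the correlations with the other shOSGEP libraries were 0.877 and 0.915, against 0.953 between those libraries. The Log2FC of each gene without both libraries of replicate 2 is therefore given beside its value. All 7 melanocyte markers were expressed, with a summed level of 17038 to 29599 CPM in shCtr. In shOSGEP the sum was 3551 CPM in replicate 2 and reached 18083 CPM in the others. Mitf, the melanocyte master regulator and an ERK substrate, had only 29.4 CPM for shCtr and 30.6 CPM for shOSGEP in replicate 2, whereas the remaining libraries held 202 to 339 CPM. Of 5 fibroblast, 5 immune and 7 endothelial or epithelial markers, 1 of each list passed the filter on low counts, namely Pdgfrb, Lyz2 and Cdh1. Lyz2 was at 1.485 to 3.139 CPM and Cdh1 at 0.1475 to 0.8839 CPM. Dcn, Ptprc, Cd3e, Adgre1, Cdh5, Kdr and Epcam were at 0 in every library, and the remaining markers of these lists at no more than 0.31 CPM.

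Depletion of OSGEP was first compared with control for the 10 genes together. Of these, 9 had enough counts to be tested, and Fosl1 had no count in any library. With edgeR's quasi-likelihood test, the adjusted p stayed above 0.05 for each of the 9, and the share of all 12669 tested genes that passed was 0%, with 256 at an unadjusted p under 0.05. DESeq2 called none of the 9 and 0.111% of all genes, and limma-voom with quality weights none of the 9 and 0.0237%. With a replicate block added, limma-voom called Dusp4 and Spry4, along with 11.1% of all genes. The threshold used by the study, a Log2FC (shOSGEP over shCtr) beyond 0.5 with an unadjusted p under 0.05, was passed by 1 member, Spry4, in the upward direction, which was also the one at an unadjusted p under 0.05. That threshold was passed upward by 1.59% and downward by 0.426% of all tested genes. Log2FC was above 0 for 6 of the 9, against 47.3% of all genes, and the median was 0.40 against -0.03 for all genes. Without both libraries of replicate 2 the median of the 9 was 0.15. In bulk RNA, a lower level in every cell and a smaller number of expressing cells cannot be told apart.

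**Figure D1:**
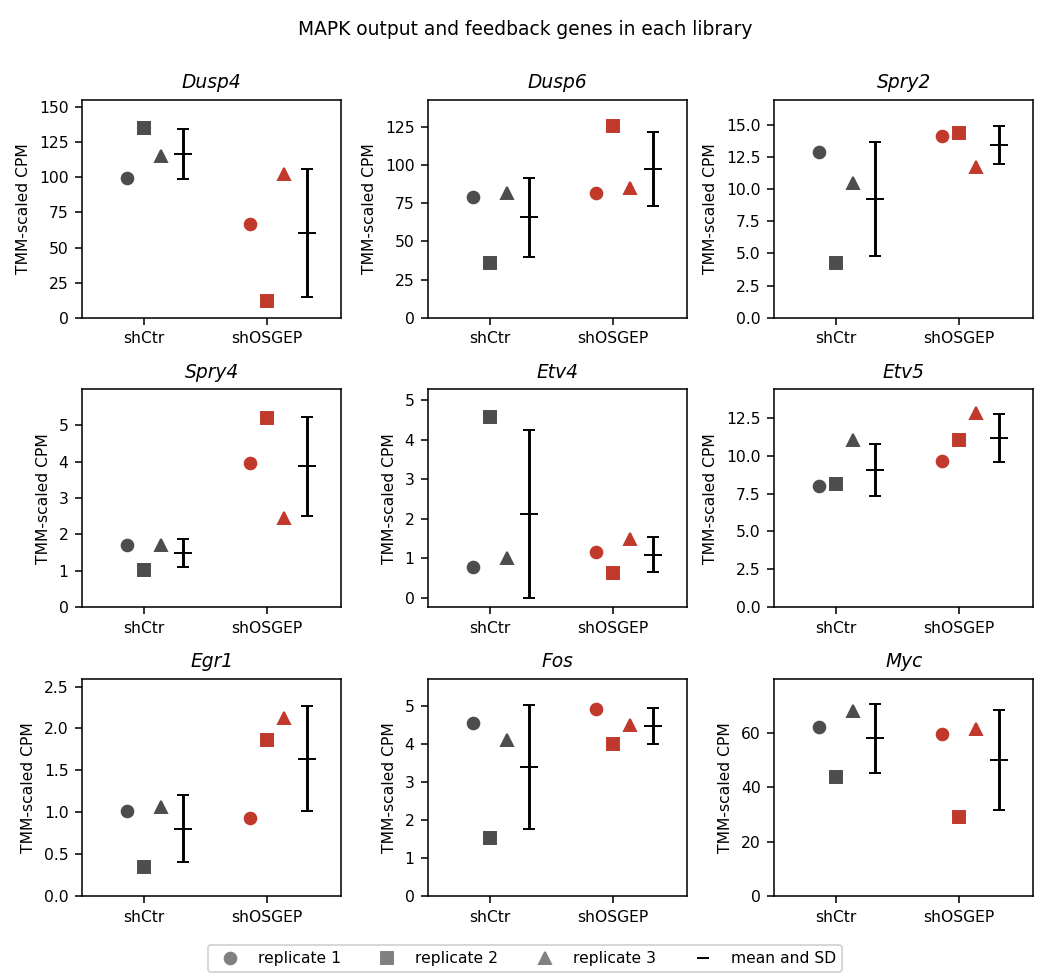
TMM-scaled CPM of the 9 detected genes (vertical axes, starting at or just below 0) in each shCtr and shOSGEP library, with the marker shape giving the replicate number and bars giving the mean and SD of 3 libraries. Spry4 is the one gene whose groups do not overlap, and replicate 2 (squares) is the extreme library of one or both groups for most of the others.

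Among the feedback inhibitors, the Sprouty proteins block signalling between receptors and RAF. Spry4 was at 1.70, 1.03 and 1.71 CPM in shCtr replicates 1, 2 and 3 and at 3.95, 5.19 and 2.46 CPM in the corresponding shOSGEP libraries. All shOSGEP libraries therefore lay above all shCtr libraries, which was so for 3.49% of all tested genes. Its mean was 1.48 ± 0.387 CPM with shCtr and 3.87 ± 1.37 CPM with shOSGEP (SD, n = 3). The Log2FC was 1.38 (SE 0.558, 95% interval 0.11 to 2.66), with an unadjusted p of 0.0371 and an adjusted p of 1.00 in edgeR. By exact permutation (two-sided) the p was 0.1, the smallest that 3 libraries against 3 can give. Log2 ratios between libraries of one number were 1.18, 2.24 and 0.51. The gene was thinly covered, at 21 to 134 counts per library, and the unadjusted p rose above the threshold in 5 of the 6 fits that left out one library, with p between 0.0418 and 0.0965 and Log2FC between 1.12 and 1.62. The exception was the fit without shOSGEP replicate 3. Without a filter on low counts the unadjusted p was 0.0553, and 1.97% of the 21821 genes then tested passed upward. Small RNA genes overlap Spry4 on the opposite strand, and reads of the pair cannot be told apart with a kit that does not mark strand. Without both libraries of replicate 2 the Log2FC was 0.91 (unadjusted p 0.111).

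Spry2, the closest relative of Spry4 in this set, did not pass the test. Levels were 12.9, 4.28 and 10.5 CPM across shCtr, against 14.1, 14.4 and 11.7 CPM across shOSGEP. The shOSGEP libraries were close to each other, shCtr replicate 2 was the low library, and the groups overlapped. The Log2FC was 0.54 (SE 0.520), with an unadjusted p of 0.328 in edgeR, and it was 0.15 without both libraries of replicate 2.

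The DUSP members dephosphorylate the kinases directly, DUSP6 mainly ERK in the cytoplasm and DUSP4 ERK and the stress kinases in the nucleus. Dusp4 (chromosome 8, 34807297 to 34819894, plus strand, GRCm38) was at 99.3, 135 and 115 CPM across shCtr, against 66.8, 11.97 and 103 CPM across shOSGEP. It was lower in shOSGEP in 3 of 3 same-numbered comparisons, as were 17.2% of all genes, with log2 ratios of -0.57, -3.48 and -0.17. The groups overlapped by a narrow margin, shOSGEP replicate 3 lying above shCtr replicate 1. The Log2FC was -0.95 (SE 0.685, 95% interval -2.52 to 0.62), with an unadjusted p of 0.203 in edgeR. The value rested on shOSGEP replicate 2, where Dusp4 stood at 0.141 of the mean of the other shOSGEP libraries; without that library the Log2FC was -0.44, and without both libraries of replicate 2 it was -0.34. The same library held the lowest levels of 6 of the 7 melanocyte markers, for instance Pmel at 485 CPM, Tyr at 29.6 CPM and Dct at 723 CPM. The other shOSGEP libraries held Pmel at 3737 and 4669 CPM, Tyr at 226 and 180 CPM and Dct at 4875 and 4041 CPM. The part of this shift in the Dusp4 value was not tested.

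Dusp6 (chromosome 10, 99263231 to 99267489, plus strand) had the opposite sign. Levels were 79.3, 36.0 and 81.9 CPM across shCtr, against 81.7, 125 and 85.0 CPM across shOSGEP. The libraries of replicates 1 and 3 lay close together in both groups, and replicate 2 held both the lowest and the highest value. The Log2FC was 0.57 (SE 0.458, 95% interval -0.48 to 1.61), with an unadjusted p of 0.250 in edgeR. Within replicate numbers the log2 ratios were 0.04, 1.80 and 0.05, and without both libraries of replicate 2 the Log2FC was 0.05.

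Etv4 and Etv5 encode transcription factors of the PEA3 group of the ETS family, which bind promoters of growth and invasion genes. Etv5 (chromosome 16, 22381309 to 22439719, minus strand) was at 7.99, 8.16 and 11.1 CPM across shCtr, against 9.63, 11.0 and 12.8 CPM across shOSGEP. The log2 ratios were 0.27, 0.43 and 0.21, each above 0, as for 17.6% of all genes. The groups overlapped, and the Log2FC of 0.30 (SE 0.431) had an unadjusted p of 0.507 in edgeR and was 0.24 without both libraries of replicate 2. Etv4 (chromosome 11, 101769742 to 101785371, minus strand) was at 0.765, 4.57 and 1.01 CPM across shCtr, against 1.16, 0.620 and 1.48 CPM across shOSGEP. shCtr replicate 2 held 5.14 times the mean of the other shCtr libraries, and shOSGEP replicate 2 was the lowest of all. The Log2FC of -0.95 (SE 0.803) was not past any threshold, and it turned to 0.29 without shCtr replicate 2 and to 0.58 without both libraries of replicate 2. With 16 to 93 counts per library, the direction of Etv4 depended on that 1 library.

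The early transcription factors were at low to moderate levels. Egr1, a zinc finger factor induced within minutes of growth factor addition, was at 1.02, 0.344 and 1.06 CPM across shCtr, against 0.930, 1.86 and 2.12 CPM across shOSGEP, from 7 to 50 counts. Its groups overlapped through replicate 1, and its Log2FC was 1.01 (SE 0.650, 95% interval -0.48 to 2.50), with an unadjusted p of 0.157 in edgeR. Within replicate numbers the log2 ratios were -0.12, 2.17 and 0.94. The Log2FC was 0.66 without shCtr replicate 2 and 0.56 without both libraries of replicate 2.

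Fos, the inducible partner in AP-1 dimers, was at 4.55, 1.52 and 4.10 CPM across shCtr, against 4.93, 3.99 and 4.50 CPM across shOSGEP. Apart from shCtr replicate 2, the libraries lay within a narrow range. The Log2FC was 0.40 (SE 0.565), with an unadjusted p of 0.501 in edgeR, and it was 0.05 without shCtr replicate 2 and 0.13 without both libraries of replicate 2. Fosl1 encodes FRA-1, an AP-1 factor of invasive and dedifferentiated tumour cells. With 0 counts in each library, a level up to 0.116 to 0.147 CPM per library remains possible (a limit of 3 counts, for counting error only), and no fold was computed.

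Myc (chromosome 15, 61985391 to 61990374, plus strand), the growth regulator whose mRNA and protein both respond to ERK, was at 62.1, 43.7 and 67.8 CPM in shCtr. In shOSGEP it was at 59.5, 28.98 and 61.5 CPM. The library of replicate 2 was the lowest of its group on each side, and the groups overlapped. The Log2FC was -0.21 (SE 0.449, 95% interval -1.24 to 0.82), with an unadjusted p of 0.651 in edgeR. Within replicate numbers it was lower each time, by log2 ratios of -0.06, -0.59 and -0.14, and the Log2FC was 0.08 when shOSGEP replicate 2 was left out and -0.10 without both libraries of that number.

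**Figure D2:**
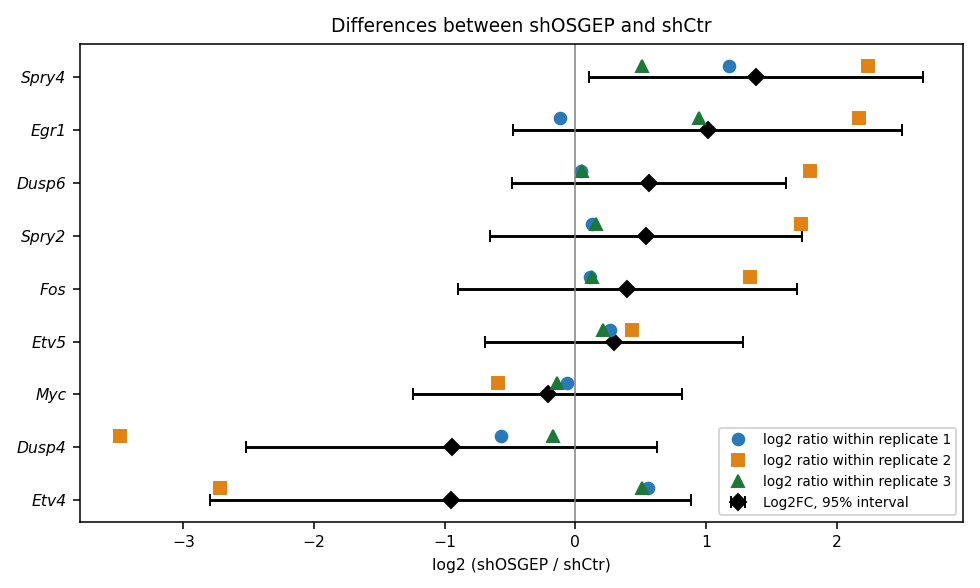
Log2 of shOSGEP over shCtr (horizontal axis) for the 9 tested genes. Black diamonds with bars give the edgeR Log2FC with its 95% interval, and coloured markers the log2 ratio within each replicate number; the interval of Spry4 alone excludes 0, and replicate 2 gives the ratio farthest from 0 for every gene.

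Levels were compared between genes per kilobase of transcript, as the mean CPM per kilobase over the 6 libraries. Dusp4 (32.3), Dusp6 (29.2) and Myc (23.1) were the most abundant, and their ranges over libraries overlapped one another (4.37 to 49.2, 12.9 to 44.8 and 12.4 to 29.01). Spry2 (5.41) lay below all of Myc's range, and Etv5 (2.55) and Fos (1.87) followed. Etv4 (0.669), Spry4 (0.562) and Egr1 (0.273) were the scarcest, and Fosl1 was not detected. From Spry2 down, the ranges of neighbours in this order overlapped. The pair of phosphatases thus exceeded Spry4, the one member past the study threshold, in every library on this scale.

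The members did not vary as one group across the libraries. Dusp6, Spry2, Fos and Egr1, each lowest in shCtr replicate 2, had Pearson correlations of log2 CPM over 6 libraries of 0.932 (Dusp6 and Spry2), 0.963 (Spry2 and Fos) and 0.846 (Dusp6 and Fos), and of Egr1 with these of 0.894 (Dusp6), 0.809 (Spry2) and 0.779 (Fos). Dusp4 ran against Spry4 (-0.828) and Dusp6 (-0.697) and with Myc (0.804). These values are descriptions, since libraries share depth, composition and infection. Over the 4 libraries of replicates 1 and 3 the correlation was -0.339 for Dusp6 and Spry2 and -0.0989 for Dusp6 and Fos, so their likeness over 6 libraries rested on replicate 2. It was 0.969 for Spry2 and Fos, 0.838 for Egr1 and Dusp6, -0.342 for Egr1 and Spry2 and -0.161 for Egr1 and Fos. For Dusp4 over these 4 libraries it was 0.12 with Dusp6, -0.90 with Spry4 and 0.80 with Myc. Against the mean profile of the 9 genes, the most similar genes outside all lists were Col5a1 (r = 0.993), Adamts14 (r = 0.992) and Lrp2 (r = 0.991), each with its lowest level in shCtr replicate 2.

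Since libraries differed by transcript composition, the GC content and length of each member were set beside all tested genes. GC content ranged from 46.2% in Spry2 (percentile 28.9) to 58.7% in Etv4 (percentile 91.9), and transcript length from 2087 bases in Spry2 to 4755 bases in Spry4. In shCtr replicate 2, a smooth trend on GC and length gave 0.93 for Etv4 and -0.54 for Spry2 on the log2 scale, where the measured deviations from the gene mean were 1.78 and -1.28. For Fos and Egr1 the trend went the other way from the measurement, at 0.45 and 0.48 against -1.23 and -1.42. For Dusp6 and Spry4 the trend was near 0 (-0.12 and -0.13), against deviations of -1.09 and -1.10. With this trend removed from every library the Log2FC was 1.45 for Spry4 (unadjusted p 0.0167 in edgeR), 0.50 for Dusp6, 0.37 for Spry2, -0.76 for Dusp4 and -0.35 for Etv4. No member, and 0% of all genes, passed an adjusted p under 0.05 in that fit.

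**Figure D3:**
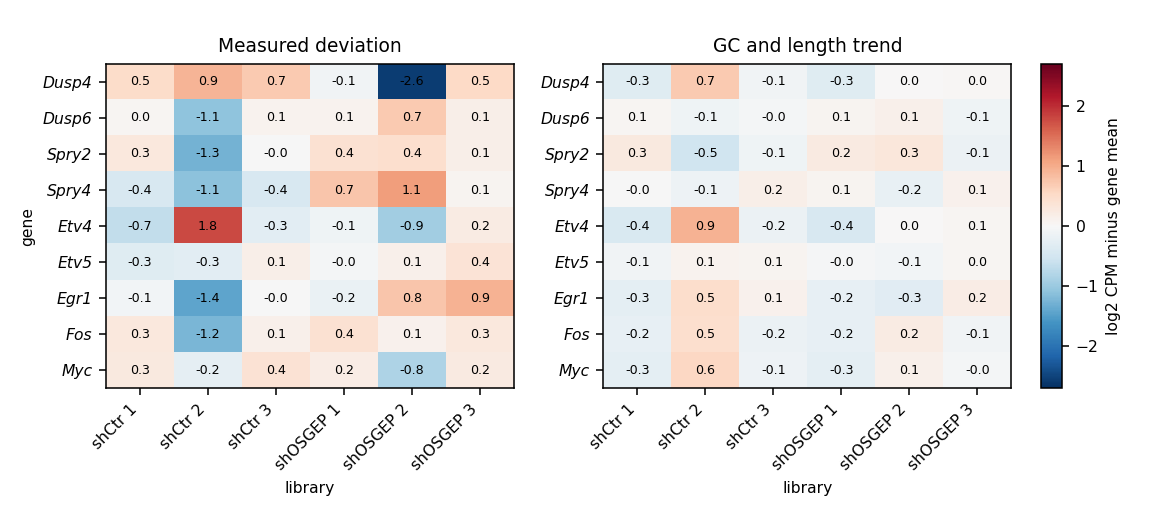
Deviation of log2 CPM from the mean of each gene over the 6 libraries (left) and the part given by the trend on transcript GC content and length in that library (right), on one colour scale. shCtr replicate 2 is low for Dusp6, Spry2, Spry4, Egr1 and Fos, and the trend in that library is above 0 for Egr1 and Fos; the lowest measured value is Dusp4 in shOSGEP replicate 2.

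Codons that begin with A, those read by t6A tRNAs, made up between 16.9% and 28.2% of the coding sequence of the 9 tested members. Etv4 (16.9%) and Etv5 (17.9%) ranked low among tested genes with a complete coding sequence, at percentiles 3.5 and 5.1. Egr1 ranked highest of the 9, at percentile 62.6, and Spry4 (23.8%) stood at percentile 27.2. Only mRNA levels were measured, so the share has no readout here.

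The rest of the pathway was then examined, using 158 further genes in 8 hand-written lists, of which 136 were tested. None passed an adjusted p under 0.05 in edgeR, and the median Log2FC was 0.02. The study threshold was passed upward by 5 and downward by 2 of the 136, beside 1.59% and 0.426% of all tested genes. Groups did not overlap upward for 11 of the 136 and downward for 4, beside 3.49% and 2.87% of all tested genes. The genes named below had the smallest p values of their lists, a choice that favours groups without overlap. The count past the study threshold, 7 in all (256 of all genes), was 1 without shOSGEP replicate 2 (67 of all genes). It was 3 without shCtr replicate 3 (167 of all genes) and 3 without both libraries of replicate 2 (194 of all genes). With GC and length offsets it was 15 (695 of all genes). Among other brakes, none of 7 tested dual-specificity phosphatases passed, and the smallest p values belonged to Dusp8 (Log2FC 0.57, SE 0.472), Dusp2 (-1.001, SE 0.738) and Dusp14 (0.54, SE 0.655). In that order their Log2FC was 0.34, 0.32 and 0.22 without both libraries of replicate 2. Of 10 further feedback inhibitors none passed. The groups did not overlap for 2 of the 10, both upward, beside 3.49% of all tested genes. These were Spred3, a Sprouty-related inhibitor, and Lrig1, which lowers receptor levels. Spred3 was at 6.20, 3.34 and 3.32 CPM across shCtr, against 9.30, 9.61 and 7.30 CPM across shOSGEP, with a Log2FC of 1.03 (SE 0.493, unadjusted p 0.0702 in edgeR). With the replicate block the unadjusted p of Spred3 was 0.031, past the study threshold. Lrig1 was at 1.49, 0.442 and 1.25 CPM across shCtr, against 2.51, 2.83 and 1.87 CPM across shOSGEP (Log2FC 1.18, SE 0.617). Socs3, an inhibitor of cytokine receptors, had a Log2FC of -0.53 (SE 0.518). The Log2FC of Spred3, Lrig1 and Socs3 was 0.80, 0.68 and -0.28 without both libraries of replicate 2.

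Of 24 further ERK output genes, 2 passed the study threshold upward and none downward. Lif, a cytokine, was at 0.807, 1.03 and 0.415 CPM across shCtr, against 1.396, 7.32 and 1.32 CPM across shOSGEP, with a Log2FC of 2.15 (SE 0.843). Btg2, an antiproliferative early gene that p53 also induces, was at 18.3, 5.997 and 15.3 CPM across shCtr, against 27.8, 64.9 and 21.8 CPM across shOSGEP, with a Log2FC of 1.53 (SE 0.613). Neither gene had overlapping groups. Of the 24 genes, the groups did not overlap upward for 2 and downward for 2, beside 3.49% and 2.87% of all tested genes. In both Lif and Btg2 shOSGEP replicate 2 was far above the others. Without that library the Log2FC was 0.87 for Lif and 0.92 for Btg2, and without both libraries of replicate 2 it was 1.14 and 0.56. Epha4, a receptor for ephrins, had a Log2FC of 1.15 (SE 0.678) with overlapping groups. It was 0.48 when shOSGEP replicate 1 was left out and 1.25 without both libraries of replicate 2.

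Among 13 tested receptors and ligands, 2 passed upward. Axl, a receptor tyrosine kinase of dedifferentiated melanoma cells, was at 10.1, 8.95 and 12.6 CPM across shCtr, against 26.8, 85.4 and 18.2 CPM across shOSGEP, with a Log2FC of 2.04 (SE 0.637, unadjusted p 0.012 in edgeR). It was above every shCtr library in each shOSGEP library, and the Log2FC was 0.99 without both libraries of replicate 2. The growth factor receptor gene Fgfr3 had a Log2FC of 1.601 (SE 0.685) with overlapping groups, and Pdgfrb 0.87 (SE 0.474) without overlap. Axl and Pdgfrb were the 2 of the 13 without overlap, beside 3.49% of all tested genes in the upward direction. Leaving out shOSGEP replicate 2 gave 0.68 for Fgfr3, and leaving out both libraries of that number gave 0.57 for Fgfr3 and 0.50 for Pdgfrb. Pdgfrb also stood on the fibroblast list, whose summed level was 4.47 to 9.18 CPM in shCtr and 11.4 to 15.4 CPM in shOSGEP, and the other 4 genes of that list were near or at 0. In the core from RAS to ERK and its substrates, 41 genes were tested with a median Log2FC of -0.03, and 1 passed, downward. This was Mknk2, the ERK substrate kinase that phosphorylates eIF4E, at 221, 884.5 and 282 CPM across shCtr, against 123, 41.0 and 231 CPM across shOSGEP. Its groups overlapped, and its Log2FC of -1.81 (SE 0.765) was -0.50 without both libraries of replicate 2. The ribosomal S6 kinase gene Rps6ka1 (-1.22, SE 0.607) and the MEK scaffold gene Lamtor3 (1.01, SE 0.527) had the next smallest p values. Neither passed. Of the 41, the groups did not overlap upward for 1, Lamtor3, and downward for 1, beside 3.49% and 2.87% of all tested genes. Without both libraries of replicate 2, Rps6ka1 and Lamtor3 were at -0.33 and 0.20.

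Of 22 tested genes of the JNK, p38 and ERK5 branches none passed. Map2k6, which activates p38, was at 13.5, 8.65 and 13.6 CPM across shCtr, against 7.40, 3.14 and 7.30 CPM across shOSGEP, without overlap, with a Log2FC of -1.001 (SE 0.518). Groups that did not overlap downward were seen for 2.87% of all genes. With the replicate block the unadjusted p of Map2k6 was 0.0224 in edgeR, against 0.0885 without it, and its Log2FC was -0.88 without both libraries of replicate 2. Map3k11, an upstream kinase of JNK, and Mapk11, a p38 isoform, had Log2FC of -1.28 (SE 0.673) and -0.63 (SE 0.493), which were -0.18 and -0.13 without both libraries of replicate 2. Map3k11 was at -0.42 without shCtr replicate 2 alone. Of 9 MYC partners and relatives, Mxd3, which competes with MYC for MAX, passed downward (Log2FC -1.80, SE 0.749) with overlapping groups, whereas its relative Mxd1 (0.99, SE 0.594) and the noncoding Myc neighbour Pvt1 (0.96, SE 0.605) did not pass. Of these 9 genes the groups did not overlap for 1, Mxd1, upward, beside 3.49% of all tested genes. Without both libraries of replicate 2 the Log2FC was -0.39 for Mxd3, 0.16 for Mxd1 and 0.30 for Pvt1. With the replicate block Btg2, Fgfr3, Mknk2 and Mxd3 no longer passed the study threshold (unadjusted p between 0.0821 and 0.119). Over all 8 lists 5 genes passed upward and 1 downward with the block, beside 2.32% and 0.624% of all genes.

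Of 10 tested AP-1 and CREB-family partners, 1 passed upward. This was Atf4, through which the integrated stress response acts on transcription, at 280, 245 and 263 CPM across shCtr, against 489, 1210 and 481 CPM across shOSGEP, without overlap. Its Log2FC was 1.47 (SE 0.4999, unadjusted p 0.0182 in edgeR), and it was 0.84 without both libraries of replicate 2. Atf3, a stress-induced AP-1 partner, also had no overlap, at 9.09, 10.7 and 9.50 CPM across shCtr, against 12.7, 43.9 and 12.8 CPM across shOSGEP (Log2FC 1.25, SE 0.592). Atf4 and Atf3 were the 2 of the 10 without overlap, beside 3.49% of all tested genes in the upward direction. The Log2FC of Atf3 was 0.40 when shOSGEP replicate 2 was left out and 0.46 without both libraries of that number. Batf3, a JUN partner, had a Log2FC of -1.33 (SE 0.878), which changed sign without shCtr replicate 2 (0.22) and without both libraries of replicate 2 (0.15).

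**Figure D4:**
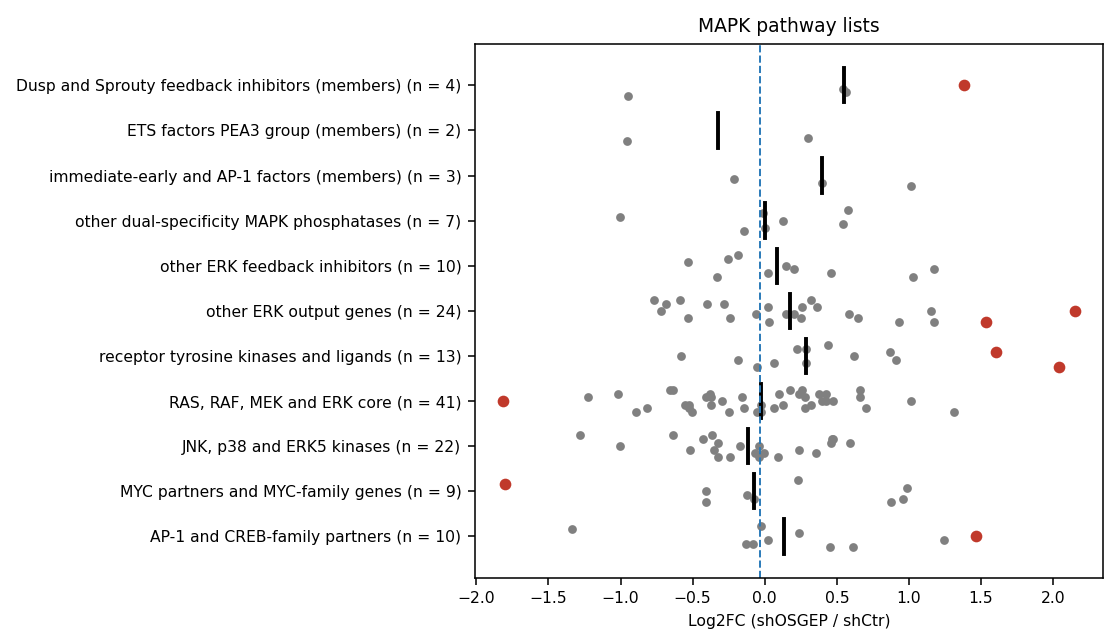
Log2FC (horizontal axis) of every tested gene in each list, with n the number tested, black bars at the list median, the dashed line at the median of all tested genes (-0.03) and larger red points for genes past the study threshold. The 9 members hold 1 red point, Spry4, and the 8 other lists hold 7.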

How the data were processed

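B16F10 polyA RNA was sequenced in paired reads by the authors with a TruSeq RNA kit that does not mark strand, for 3 infections per group. Per the methods of the study, reads were aligned to GRCm38 with STAR 2.6.1d and quantified with Salmon 1.4.0. The authors deposited whole-number counts per Ensembl gene, without normalization or filter, and with 1 column per library. Reads shared by similar genes were divided by Salmon. Read counting by strand is not stated, and Spry4 and Fosl1 overlap genes on the opposite strand (small RNA genes, and Ccdc85b).

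Genes were kept by filterByExpr (minimum count 10, minimum total 15), which left 12669, and the counts were scaled by TMM and tested with edgeR 4.0.16 (R 4.3.3, quasi-likelihood F-test, two-sided, Benjamini-Hochberg over all genes tested). SE is the Log2FC over the root of F. Same-number log2 ratios used a prior count of 2. Depth was 18915587 to 29487384 counts per library, where 3 counts equal 0.116 to 0.147 CPM. Same-numbered libraries deviated together from their group means, with correlations of 0.811, 0.557 and 0.196, all over the set limit of 0.1. The highest value between different numbers was 0.491, above that of number 3. The main fit had no block for the replicate number, so its tests were unpaired. The fits with a replicate block were alternatives. What a number marks is not given in the labels. Transcript GC, length and coding sequence came from GENCODE M21 (99.4% of identifiers matched), from the longest basic coding transcript per gene.

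Alternatives were DESeq2 1.42.0, limma-voom (limma 3.58.1) with sample quality weights, other scalings and filters, the replicate block, GC and length offsets (splines of 5 degrees of freedom), and leaving out libraries. The edgeR, DESeq2 and limma-voom fits were run on simulated counts as a check of the code. Those counts held no replicate pairing and no GC or length trend, so they do not show how the fits behave on these libraries. Named were all members, Osgep, the 3 genes with the smallest p in each other list and the 3 genes most similar in profile. The members, lists, tests and alternatives were chosen with earlier results of these data known, and the promoter motifs, count ratios and melanocyte markers named singly after the values were seen.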

Additional observations from a re-analysis of the deposited data

How the results depend on the processing

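No member passed an adjusted p under 0.05 in 18 of 19 alternatives. Limma-voom with quality weights and a replicate block called 2, Dusp4 (Log2FC -0.50, adjusted p 0.00740) and Spry4 (1.04, adjusted p 0.00105), among 1403 genes or 11.1% of all. That fit had 2 residual degrees of freedom per gene, beside 902.5 prior degrees of freedom taken from all genes. It weighted the libraries of replicate 2 at 0.112 and 0.113. DESeq2 called 14 genes in all and limma-voom with quality weights without the block 3, none of them members. Members past the study threshold numbered 0 with no filter on low counts (Spry4 p 0.0553, over 21821 genes tested) and 0 to 1 when libraries were left out. The replicate block in edgeR changed no call of a member (Spry4 Log2FC 1.35, unadjusted p 0.0402).

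The sign of Etv4 changed under limma-voom with quality weights (0.31) and with the block added (0.50), and with libraries left out it ranged from -1.59 to 0.58. Those ranges were -0.39 to 0.077 for Myc, -1.71 to 0.32 for Dusp2, -0.19 to 0.98 for Dusp14 and -1.82 to 0.22 for Batf3. Dusp2 was at 0.17 under limma-voom with quality weights and 0.15 with the block, and Batf3 at 0.16 with the block. The cause of these changes was not tested. The other 7 members kept their sign under every alternative that gave a value; Egr1 had none under the filter of 10 counts in every library. Spry4, Etv4, Egr1 and Fos had at most 134 counts in a library.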

Other observations

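Count ratios between members do not depend on how a library is scaled. They still carry the GC and length trend of each library where it differs between the genes of a pair. In shCtr replicate 2 that trend was 0.71 for Dusp4 and -0.12 for Dusp6 on the log2 scale. The ratios were taken after the values were seen, for all 36 pairs of the 9 tested genes. The groups did not overlap for 7 pairs (19.4%). Dusp4 was in 4 of these and Spry4 in 3, with the pair of Spry4 and Dusp4 in both counts. The pair of Myc and Dusp6 held neither. Among all pairs of the 12520 tested genes with a count in every library, the share was 7.76%; the member pairs share genes, so the difference was not tested. The phosphatases formed one such pair. Dusp6 counts per Dusp4 count were 0.798, 0.267 and 0.711 in shCtr replicates 1, 2 and 3 and 1.22, 10.5 and 0.829 in shOSGEP. The ratio was thus higher in each same-numbered comparison, with shOSGEP replicate 3 closest to the shCtr libraries. Spry4 counts per Dusp6 count were 0.0214, 0.02865 and 0.0208 in shCtr and 0.0484, 0.0414 and 0.0289 in shOSGEP, where the lowest shOSGEP library nearly met the highest shCtr library. Myc counts per Spry4 count were 36.5, 42.3 and 39.8 in shCtr and 15.1, 5.58 and 25.0 in shOSGEP. No test was made on these ratios, since the pairs share genes and were chosen from the same libraries.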
